A study of Mus musculus with 4 samples.

Results

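Aquaporins are membrane channels that let water cross along an osmotic gradient, and some of them, the aquaglyceroporins, also pass glycerol and urea. In liver, hepatocytes carry Aqp8 in the canalicular membrane, where it takes part in water flow into bile, and Aqp9 in the sinusoidal membrane, where it admits glycerol. Aqp11 is an intracellular aquaporin of the endoplasmic reticulum, and Aqp1 is the water channel of endothelial cells, bile duct cells and red cells. Aqp4 is best known as the water channel of astrocytes in the brain. These 5 genes were followed here, out of 12 aquaporin genes and 18193 singly named genes on the array. They were chosen by gene symbol, as hepatocyte channels beside an endothelial and biliary one, with the values of the treated against control comparison already known. Their own differences between the groups are therefore given as a description and carry no test. They were measured by 10 probe sets, of which 8 lay above the filter on dim signals. That filter was a mean log2 signal of 7.67 over the 4 arrays, which equals a signal of 204. Each of the 5 genes was kept through its brightest probe set.

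The data were 4 single-colour Affymetrix arrays of mouse liver. All mice had the genotype Metff/ff:ERCre+/+, a Met gene flanked by recombination sites together with a Cre recombinase that tamoxifen activates. In the treated group, delta MET + EGFRi, tamoxifen in corn oil was injected on consecutive days to remove exon 16 of Met throughout the body, and after a rest of 4 days the diet held canertinib, an EGFR inhibitor, aimed at 80 mg/kg/day. Controls were littermates given corn oil alone, without tamoxifen or canertinib, so that Met deletion, tamoxifen and canertinib cannot be told apart. By the sample titles, treated livers were taken at day 7 and day 10 after the start of canertinib in the diet. Those of control livers give day 7 and day 10 without naming a start. The livers of a group and day were pooled on 1 array, giving 2 arrays per group. The labels used here name neither the promoter behind Cre nor the number of animals in a pool. The arrays of a group thus differ in day, and no spread between animals was measured. In bulk liver, fewer cells of a type and less RNA per cell cannot be told apart.

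The median signal was 210.5 to 223.9 on the 4 arrays, and their log2 signals correlated in pairs with r from 0.923 to 0.948 across probe sets. By its brightest probe set, Met had signals of 2432.5 and 2828.7 in treated livers at day 7 and day 10, against 975.5 and 1270.8 in control livers. The targeted gene was thus not lower by that probe set in the libraries labelled as deleted. Where its probes lie relative to exon 16 was not examined, and probes outside that exon do not check the deletion. The hepatocyte markers Alb and Ttr were among the bright signals of every array, with Alb at 78531.5 and 74100.5 in treated and 75758.2 and 71295.3 in control livers.

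Among the brightest probe sets of the members, that of Aqp8 had the widest gap between the groups. Its only probe set had signals of 669.4 at day 7 and 1247.8 at day 10 in treated livers, against 6017.7 and 5056.1 in control livers. Both treated arrays lay far below both control arrays, without overlap. The means were 958.6 ± 409 in treated and 5537 ± 680 in control livers (SD, n = 2 arrays each). Aqp8 was 8.99-fold lower at day 7 and 4.05-fold lower at day 10, which are log2 differences of -3.17 and -2.02 (treated minus control). Of the 11993 kept genes, 24 were lower still at day 7 and 120 at day 10, and 31 by the mean of both days. By brightest probe sets Aqp8 was the 1 member of 5 at least 2-fold lower at day 7, at day 10 and at both days, beside 5.16%, 4.91% and 1.14% of all kept genes. No member was at least 2-fold higher at either day by its brightest probe set, beside 4.6% and 5.84% of kept genes. With arrays scaled to equal medians, 675 kept genes were at least 2-fold higher and 491 lower at day 7, against 552 and 619 as reported, and Aqp8 stayed at a log2 difference of -3.08. Since members were chosen with these values known, the counts describe the 5 genes only. Within the treated group the signal of Aqp8 was 1.86-fold higher at day 10 than at day 7, and within the control group 1.19-fold lower.

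**Figure D1:**
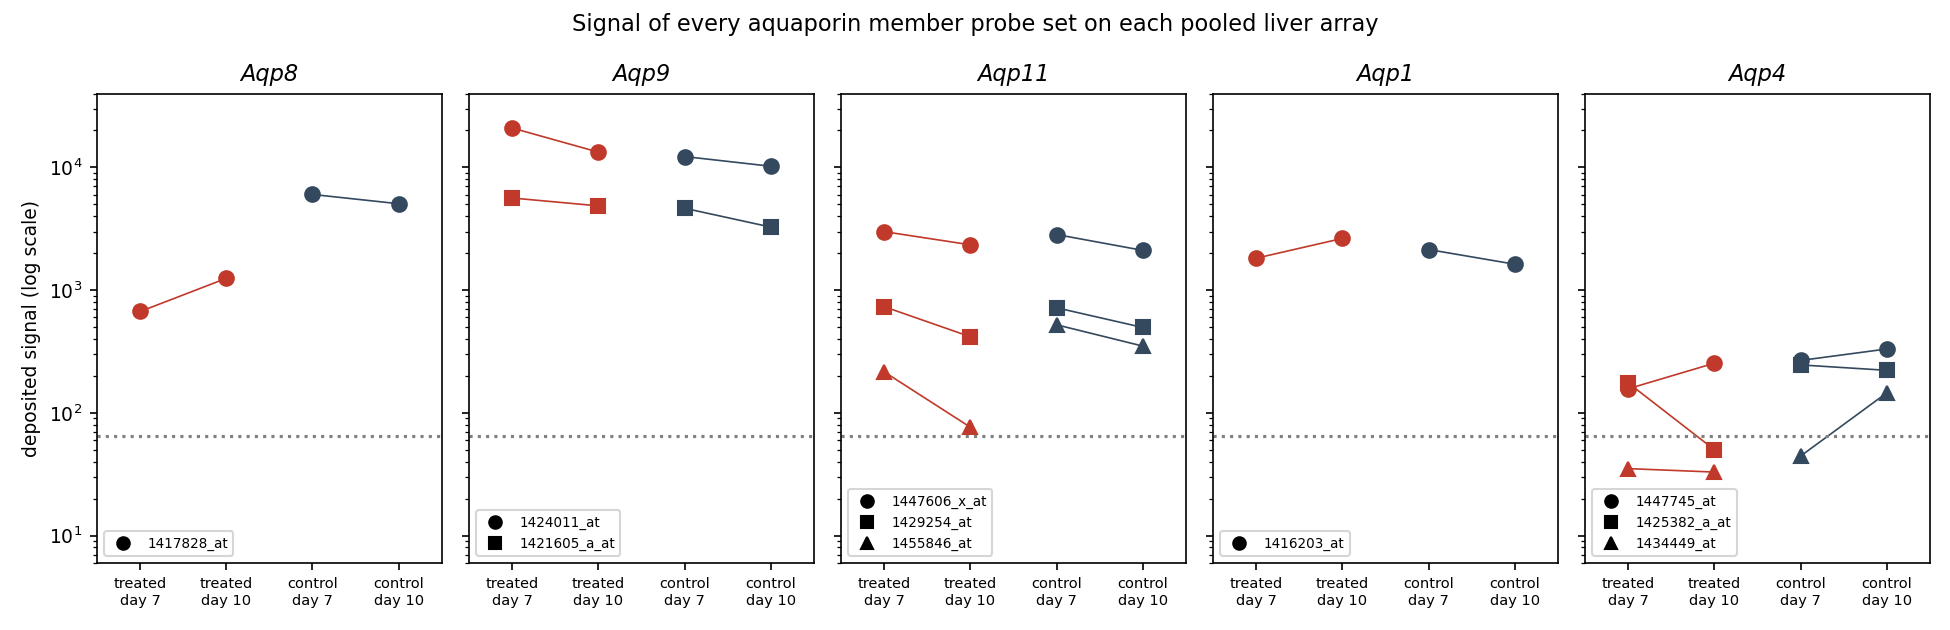
Deposited signal (log axis) of each probe set of the 5 members on the 4 arrays, treated in red and control in grey, with lines joining the 2 days of a group and a dotted line at the floor of 64.8. The treated points of Aqp8 (669.4 and 1247.8) lie below its control points (6017.7 and 5056.1), while 1 probe set of Aqp11 and the 2 dimmer ones of Aqp4 have treated points near or under the floor and the rest lie closer to their controls. Different probe sets bind with different strength, so heights are comparable only along 1 probe set.

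The sequence around the transcription start is shown for Aqp8, the member with the widest gap by brightest probe sets, and for Aqp9, the hepatocyte channel that was higher. Each window runs from 250 bases before to 50 bases after a start in RefSeq (build GRCm38.p6). The Aqp8 window is chr7:123462044-123462343 on the plus strand. The Aqp9 windows are chr9:71163240-71163539 (start A) and chr9:71162584-71162883 (start B), both on the minus strand. Capitals mark matches to the motifs searched.
Aqp8: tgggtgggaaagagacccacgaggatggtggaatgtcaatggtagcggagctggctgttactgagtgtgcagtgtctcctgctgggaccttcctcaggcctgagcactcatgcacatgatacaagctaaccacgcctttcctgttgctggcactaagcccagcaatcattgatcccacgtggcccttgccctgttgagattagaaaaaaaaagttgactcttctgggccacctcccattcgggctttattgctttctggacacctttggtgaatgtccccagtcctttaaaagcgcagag
Aqp9 start A: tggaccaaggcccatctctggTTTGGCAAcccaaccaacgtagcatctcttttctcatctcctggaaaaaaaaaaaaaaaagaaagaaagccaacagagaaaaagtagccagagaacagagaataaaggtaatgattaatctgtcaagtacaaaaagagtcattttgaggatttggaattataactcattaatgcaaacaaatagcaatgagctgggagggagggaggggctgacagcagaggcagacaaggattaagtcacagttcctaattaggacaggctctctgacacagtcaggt
Aqp9 start B: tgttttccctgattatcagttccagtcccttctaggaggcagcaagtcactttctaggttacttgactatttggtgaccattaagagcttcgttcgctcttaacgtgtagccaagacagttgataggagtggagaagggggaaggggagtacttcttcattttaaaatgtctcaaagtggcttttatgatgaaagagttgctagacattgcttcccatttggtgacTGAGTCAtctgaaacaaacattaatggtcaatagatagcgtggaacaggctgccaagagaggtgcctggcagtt
Motifs were searched on both strands, and a site matched on both was counted once: AP-1 (TGANTCA), C/EBP (TTGCNNAA) and the TATA box (TATAAA). The letters of these motifs were not in the windows of Aqp8, Aqp11 and Aqp1. Aqp4 was left out of the search. Start A of Aqp9 held 1 match to the C/EBP letters, 229 bases before the start, and start B held 1 match to the palindromic AP-1 letters, 24 bases before it. Among 32544 distinct promoter windows of the same length, 10.8% held the C/EBP and 7.79% the AP-1 letters. The Aqp8 window had 52.0% G and C, against 41.3% and 43.7% in the Aqp9 windows and 68.0% in that of Aqp11.

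Aqp9, the glycerol channel of the sinusoidal membrane, was modestly higher in treated livers. Its brightest probe set had 20922.1 and 13311.2 in treated livers at day 7 and day 10, against 12259.5 and 10216.7 in control livers. Both treated arrays were above both control arrays, and the day 10 treated signal exceeded the day 7 control signal by little. The means were 17117 ± 5382 in treated and 11238 ± 1444 in control livers (SD, n = 2 arrays each), and the fold at day 7 was 1.71, that at day 10 1.30, both upward. The other probe set of Aqp9, 1421605_a_at, read 5628.4 and 4857.4 in treated livers, against 4645.8 and 3264.3 in control livers. Its differences were 1.21-fold at day 7 and 1.49-fold at day 10, so the probe sets had the same direction and opposite order of days. Among kept genes, 951 were higher than Aqp9 at day 7 and 2786 at day 10. Without the day 7 treated array the mean log2 difference of the brightest probe set was 0.25, and without the day 10 treated array 0.90.

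The leukocyte markers above the filter, whose cells can also carry Aqp9, moved with the groups. Of 8 such markers on the array 7 were kept. The other, Itgam, had log2 differences of 0.52 at day 7 and -0.69 at day 10. All 7 kept markers were higher at both days, beside 26.7% of all kept genes. At an unadjusted p under 0.05 by limma 7 passed, beside 12.1% of kept genes. At an adjusted p under 0.05, 2 rose, beside 0.375% of kept genes. They were S100a8 (10.2-fold, Benjamini-Hochberg adjusted p = 0.00306) and S100a9 (8.97-fold, adjusted p = 0.0307), both subunits of the neutrophil protein calprotectin. S100a9 no longer passed once the day 7 control array was left out (adjusted p = 0.0643 by limma). The summed signal of the leukocyte list was 18386 and 19011 in treated livers, against 8373 and 5634 in control livers, and each of its markers exceeded the floor on 1 array or more. Their part in the Aqp9 signal was not tested.

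Aqp11 could not be given 1 direction, because its 3 probe sets differed. The brightest, 1447606_x_at, read 2993.6 and 2339.3 in treated livers, against 2838.1 and 2108.0 in control livers, which overlap. In the manufacturer's naming the ending _x_at marks probes that can also bind other transcripts. The probe set 1429254_at read 731.6 and 416.6 in treated livers, against 718.0 and 496.3 in control livers, which also overlap. The dimmest, 1455846_at, read 215.4 and 76.3 in treated livers, against 521.7 and 350.0 in control livers, with both treated arrays below both controls. By this probe set Aqp11 was 2.42-fold lower at day 7 and 4.59-fold lower at day 10 (a log2 difference of -2.20, but -1.29 with the floor at the 40th percentile), whereas the other 2 differed by at most 1.19-fold at either day. All 3 probe sets were lower at day 10 than at day 7 within each group, by 1.28- to 2.82-fold in treated and 1.35- to 1.49-fold in control livers. Which transcripts of Aqp11 each probe set binds was not examined.

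Aqp1, the channel of endothelium, bile ducts and red cells, stood on opposite sides of its controls at the 2 days. Its probe set read 1820.6 and 2637.4 in treated livers at day 7 and day 10, against 2141.2 and 1626.0 in control livers. The groups overlap, at 2229 ± 578 in treated and 1884 ± 364 in control livers (SD, n = 2 arrays each). Aqp1 was 1.18-fold lower at day 7 and 1.62-fold higher at day 10. Opposite directions at the 2 days were common, found in 42.1% of all kept genes.

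Markers of the cells that carry Aqp1 were measured on the same arrays. Of 16 endothelial markers 15 were kept, 0 passed limma in either direction (0 at an unadjusted p under 0.05), with medians of -0.10 and 0.53 (log2 differences at day 7 and day 10). The scavenger receptors Stab1 and Stab2 had log2 differences of 0.19 and 0.37 over both days (adjusted p = 0.779 and 0.534). The summed signal of the endothelial list was 14555 and 20325 in treated livers, against 15616 and 13750 in control livers. The day 10 treated array was the highest for this sum, for the biliary sum and for Aqp1. It was not the highest for every endothelial marker, as Kdr and Lyve1 were highest on a control array. Of 8 biliary markers 2 were kept, Sox9 and Epcam, 0 passed (0 unadjusted), and the summed signal was 1084 and 1733 in treated livers, against 1438 and 1433 in control livers. No biliary marker had the same sign at both days among those kept. Of 7 erythroid markers 3 were kept and 0 passed (1 unadjusted), and the summed signal was 2427 and 3429 in treated livers, against 5040 and 4683 in control livers. Most of the control sums came from Alas2, the first enzyme of haem synthesis in red cell precursors. Alas2 read 1043.1 and 1977.1 in treated livers, against 3970.7 and 3735.3 in control livers, 2.68-fold lower (adjusted p = 0.166). The sums thus follow 1 gene and give no direction for the list. Ermap was 1.41-fold lower (adjusted p = 0.608), and Epb42 never exceeded the floor. Kel was higher at both days, by 0.46 and 0.22 on the log2 scale. Slc4a1, the anion exchanger of red cells, went the other way from the summed signal and had the largest difference of the list, with 521.3 and 574.8 in treated livers, against 60.1 and 51.9 in control livers, both under the floor. It was at least 8.45-fold higher over both days, lay under the filter and was not tested. The part of these cells in the Aqp1 signal was not tested.

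Aqp4 was dim, and only its brightest probe set passed the filter. That probe set, 1447745_at, read 157.2 and 253.8 in treated livers, against 267.2 and 331.2 in control livers. Both treated arrays were below both controls, and the differences were 1.70-fold at day 7 and 1.30-fold at day 10. The probe set 1425382_a_at read 174.9 in treated livers at day 7 and lay under the floor at day 10, against 245.7 and 222.0 in control livers. It was 1.40-fold lower at day 7 and at least 3.43-fold lower at day 10. The third, 1434449_at, read 35.1 and 32.9 in treated livers, against 44.4 and 145.3 in control livers, and was at or under the floor on 3 of the 4 arrays. The first and second of these probe sets thus had treated arrays below control arrays, and the third had an order at day 10 alone, at least 2.24-fold lower. By brightest probe sets, 2 members (Aqp8 and Aqp4) lay lower and 1 (Aqp9) higher in treated livers without overlap, beside 24.1% and 20.3% of all kept genes, and Aqp11 and Aqp1 overlapped.

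**Figure D2:**
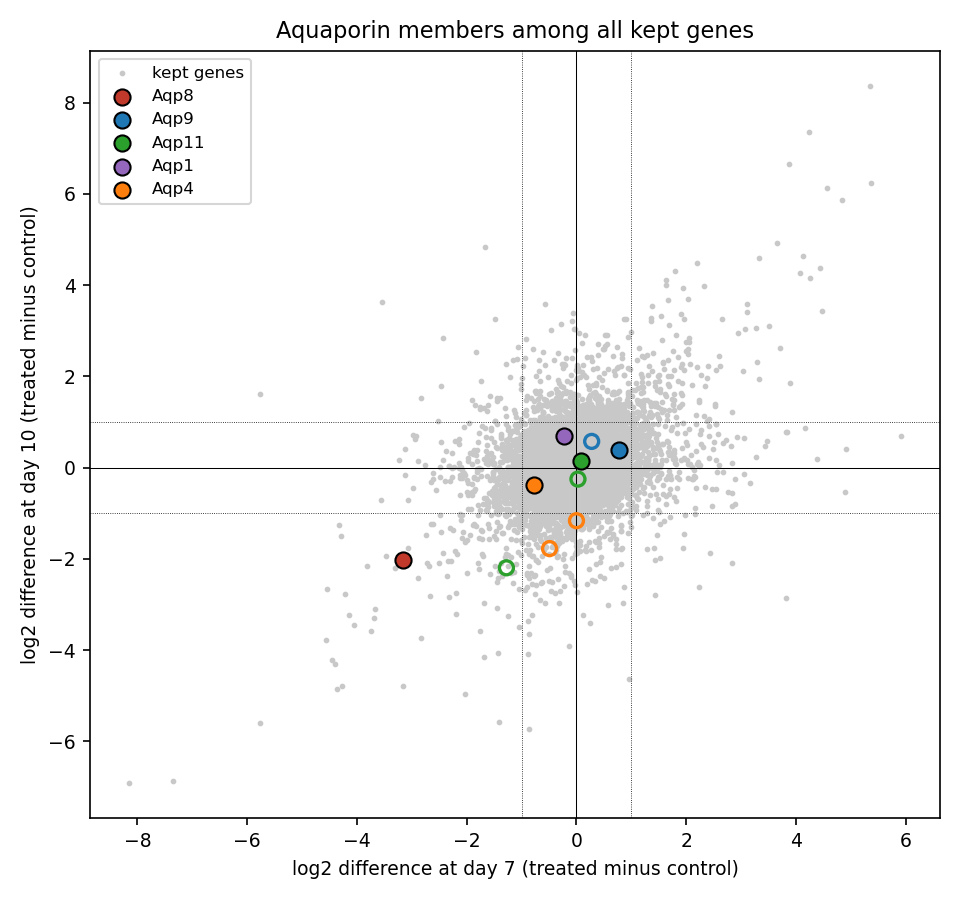
Log2 difference (treated minus control) at day 7 (x axis) and day 10 (y axis) for the 11993 kept genes in grey and the member probe sets in colour, filled for the brightest probe set of a gene and open for the others, with dotted lines at 2-fold. Aqp8 lies at -3.17 and -2.02, outside both lines, and the open green circle beyond both lines is Aqp11 probe set 1455846_at at -1.28 and -2.20.

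The other 7 aquaporin genes on the array were Aqp2, Aqp3, Aqp5, Aqp6, Aqp7, Aqp12 and Mip, most of them known from kidney, glands, fat, pancreas or lens. They had 15 probe sets, 4 above the filter, and 5 at or under the floor on all 4 arrays, among them both probe sets of Aqp7. Of the 3 genes kept, 0 passed in either direction (0 at an unadjusted p under 0.05), beside 0.375% of all kept genes higher and 0.283% lower by limma at an adjusted p under 0.05. Aqp2, the vasopressin-regulated channel of the kidney, read 289.9 and 451.9 in treated livers, against 296.4 and 504.1 in control livers (adjusted p = 0.946). Aqp6 read 426.1 and 514.1 in treated livers, against 645.3 and 513.3 in control livers by its brightest probe set (adjusted p = 0.686). The other Aqp6 probe set above the filter, 1447974_s_at, read 211.0 and 281.7 in treated livers, against 334.2 and 601.7 in control livers, lower at both days without overlap (1.58-fold and 2.14-fold), so the 2 differed. Aqp12 read 413.3 and 523.7 in treated livers, against 500.5 and 357.6 in control livers (adjusted p = 0.885). Each of these gaps was smaller than that of Aqp8. Among dim genes, Aqp5 was at or under the floor on both treated arrays (46.0 and 24.5) against 209.0 and 130.6 in control livers, at least 3.23-fold lower at day 7 and at least 2.02-fold at day 10. The brightest probe set of Mip read 29.8 and 122.5 in treated livers, against 105.9 and 303.6 in control livers. The brightest probe set of Aqp3 read 37.8 and 283.0 in treated livers, against 440.7 and 193.6 in control livers, with no common direction. Another, 1450460_at, went the other way at each day, with log2 differences of 0.64 and -1.08, both bounds set by the floor.

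Genes that share the routes of these channels were counted from lists and tested by limma over all kept genes. Of all kept genes 12.1% had an unadjusted p under 0.05, and 26.7% were higher and 31.1% lower at both days, which the list counts are to be read beside. Among 13 genes of canalicular bile secretion, the compartment of Aqp8, 0 passed (2 at an unadjusted p under 0.05), 4 were lower and 2 higher at both days, and the list had medians of 0.02 and -0.22 (log2 differences at day 7 and day 10). The medians over all kept genes were -0.06 and 0.01. The largest same-sign differences in this list were those of Abcg2, an export pump (log2 difference -1.58, adjusted p = 0.064), and Rdx, which anchors canalicular proteins to actin (1.43-fold lower, adjusted p = 0.41). The bile salt pump Abcb11 read 9601.5 and 10492.1 in treated livers, against 12096.5 and 16138.5 in control livers, a gap smaller than that of Aqp8. Abcb11 was singled out after its values were seen.

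Of 11 genes of glycerol handling, which share substrates with Aqp9, 0 passed (4 unadjusted), 7 were lower and 1 higher at both days, with medians of -0.29 and -0.57. Mgll, which releases glycerol from monoglycerides, was 2.51-fold lower (adjusted p = 0.053) and G6pc, the last step of glucose output, 2.30-fold lower (adjusted p = 0.231). Of 9 genes for ammonia and urea, solutes that Aqp8 and Aqp9 can pass, 0 passed (2 unadjusted), 3 were higher and 1 lower at both days, with medians of 0.41 and -0.38. Otc, a urea cycle enzyme, was 2.58-fold lower (adjusted p = 0.172) and Glul, which makes glutamine, 2.26-fold higher (adjusted p = 0.158). Of 12 genes for hydrogen peroxide, which Aqp8 and Aqp11 can pass, 0 passed (3 unadjusted), 7 were lower and 1 higher at both days, with medians of -0.14 and -0.35. Nox4, a peroxide-forming oxidase, was 2.25-fold lower (adjusted p = 0.217) and Cat, catalase, 1.61-fold lower (adjusted p = 0.358). Of 14 genes for cell volume and osmolytes 0 passed (1 unadjusted), 5 were lower and 3 higher at both days, with medians of 0.08 and -0.31. The volume-regulated channel subunit Lrrc8a was 1.84-fold higher (adjusted p = 0.273) and Lrrc8d 1.42-fold lower (adjusted p = 0.627).

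Among 12 hormone receptors and transcription factors of hepatocytes 1 rose, Cebpb, a factor of the acute phase response (2.98-fold, adjusted p = 0.0307), and 0 fell. At an unadjusted p under 0.05 there were 5, and 7 were higher and 2 lower at both days, with medians of 0.70 and 0.20. The call of Cebpb was lost without the day 7 control array (adjusted p = 0.259), without the day 10 control array (0.325) and with day as a block (0.116). Of 8 hepatocyte markers 0 passed (3 unadjusted), 5 were higher and 1 lower at both days, and the medians were 0.59 and 0.14. The lectin receptors Asgr1 and Asgr2 were 1.61- and 1.74-fold higher (adjusted p = 0.264 and 0.278). The summed signal of the hepatocyte list was 365129 and 294846 in treated livers, against 303331 and 296036 in control livers. Alb, Apoa1 and Ttr made up most of it on every array. The part of hepatocyte content in the Aqp8 signal was not tested.

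**Figure D3:**
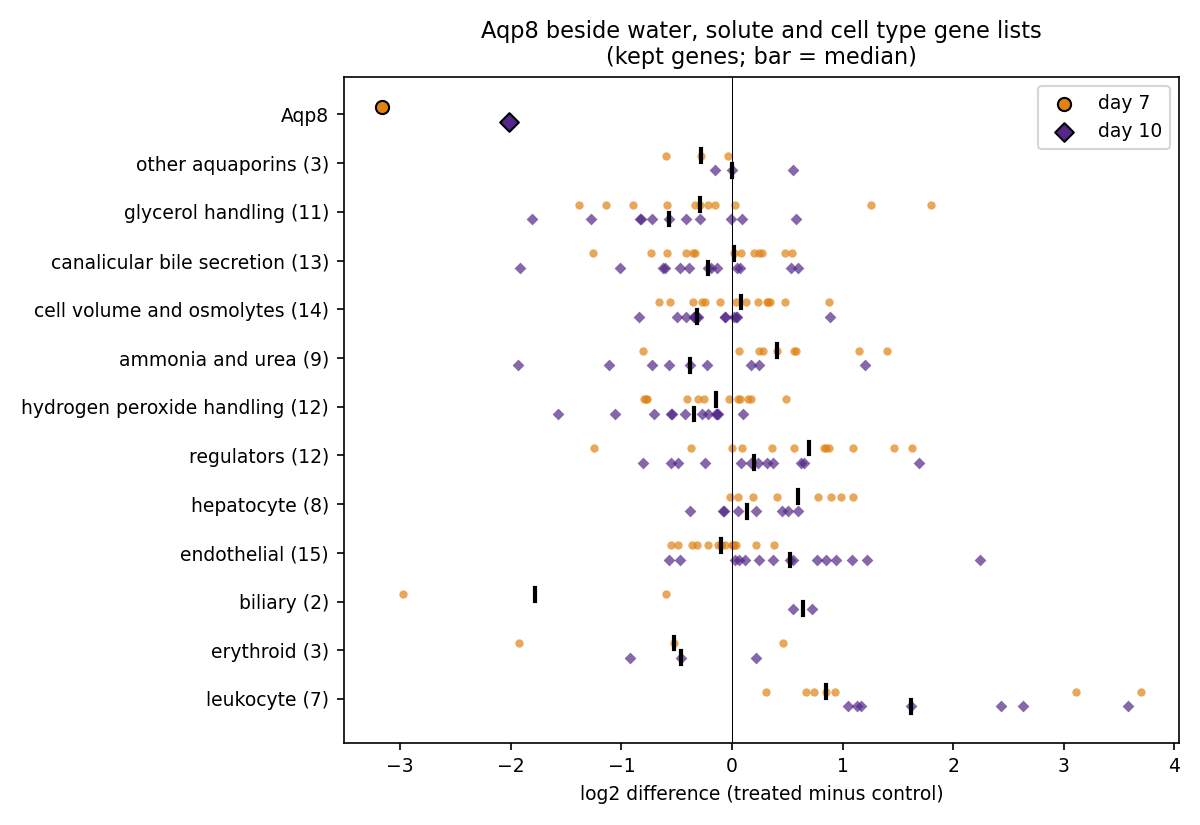
Log2 differences (treated minus control) at day 7 (circles) and day 10 (diamonds) of Aqp8 and of the kept genes in each list, with the number of genes in brackets and a black bar at each median. Aqp8, at -3.17 and -2.02, lies left of every median, including those of the hepatocyte markers (0.59 and 0.14).

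The genes nearest to the members were found by Euclidean distance between log2 signals over the 4 arrays, after each gene's mean was subtracted. With 4 arrays many genes match any such pattern, and the distance is a description. For Aqp8 the nearest were Ces2e (distance 0.16), Cyp2u1 (0.20), Hydin (0.40), Ociad2 (0.44) and Gab2 (0.49). Ces2e, a carboxylesterase, read 331.5 and 594.6 in treated livers, against 3265.8 and 2723.1 in control livers, 9.85-fold lower at day 7 and 4.58-fold at day 10. Cyp2u1, a cytochrome P450, read 140.0 and 283.9 in treated livers, against 1181.3 and 960.2 in control livers. Both thus had, as Aqp8 did, their lowest signal on the day 7 treated array. For Aqp9 the nearest were Plcg1 (0.02), Rai1 (0.05), Ppargc1a (0.07), Gltp (0.07) and Csrp3 (0.09). Plcg1 read 1757.5 and 1121.9 in treated livers, against 1025.8 and 870.7 in control livers. Ppargc1a, a coactivator of the fasting response and not the nearest of these genes, read 708.3 and 423.9 in treated livers. Its control signals were 398.1 and 327.3 (adjusted p = 0.526 by limma), and a link to Aqp9 was not tested. For Aqp11 they were Rbks, Brcc3, Mynn, Cnih3 and Eif2b3 (0.06 to 0.08), and for Aqp1 Fam43a, Nfe2l1, Sh3rf1, Mdk and Ovgp1 (0.04 to 0.07).

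**Figure D4:**
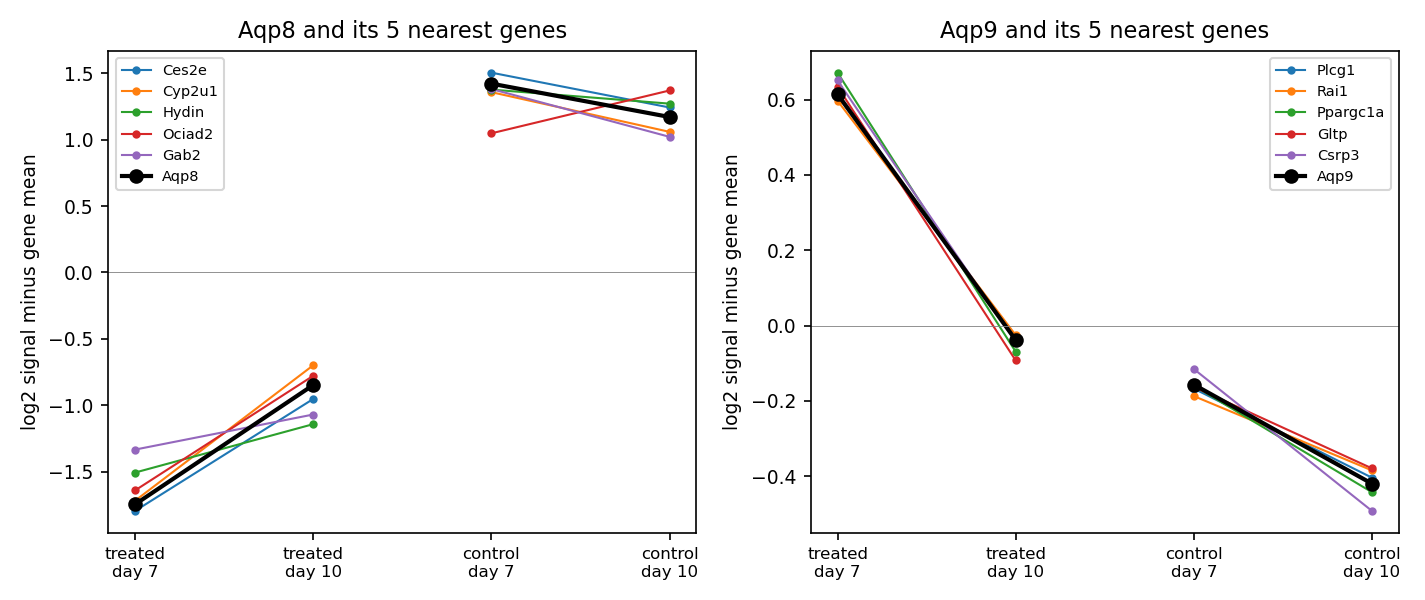
Log2 signal minus the gene's mean (y axis) on the 4 arrays for Aqp8 (left) and Aqp9 (right) in black and their 5 nearest genes in colour, lines joining the 2 days of a group. Aqp8 and its neighbours have both treated arrays low, with day 7 lowest, and Aqp9 and its neighbours have the day 7 treated array highest.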

How the data were processed

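The authors deposited 1 linear intensity (signal) per probe set and array. MAS5 made these values, per the submitters' processing notes (version not given in the sources used here), and the arrays share a trimmed mean of about 500, as the table itself shows. Detection calls were not used. The platform annotation gave 34945 of 45037 non-control probe sets 1 gene symbol, 932 several and 9160 none. The 25th percentile of all values (64.8) served as a floor before log2. A gene took the values of its brightest probe set, and of 18193 genes the 11993 whose mean log2 exceeded 7.67 (the median over probe sets, a signal of 204) entered the tests. Where a signal at or under the floor enters a fold, the fold is a bound ("at least").

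The comparison used limma 3.58.1 under R 4.3.3 (eBayes, intensity trend; two-sided p adjusted by Benjamini-Hochberg over all kept genes). With 2 arrays per group and 2 residual degrees of freedom, p-values measure only the spread between these arrays, days included. Single days have 1 array per side and no test. The limma step was also run on simulated arrays, drawn from the spread that limma itself fitted and without a day difference. That run checks the code, not whether the model suits these arrays.

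The members and lists were chosen with earlier results of these data known. Of 151 list entries, 24 had no singly named probe set here and were not analysed. Genes named were the members, the other aquaporins, genes of a list that passed or else the 2 with the largest same-sign difference, and the 5 genes nearest to Aqp8, Aqp9, Aqp11 and Aqp1. Promoter windows are from RefSeq (GRCm38.p6). The alternatives changed the scaling (quantile, equal medians), the floor (10th or 40th percentile), the filter (none or the 75th percentile), the probe set, the trend, the day term, the thresholds (adjusted p of 0.1; 1.5- and 3-fold) or the arrays included. Figures were drawn with matplotlib 3.10.9.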

Additional observations from a re-analysis of the deposited data

Results flagged for a closer look

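Some aquaporins differed from their controls in opposite directions at day 7 and day 10, with 1 array per side, so that the difference between the days was not tested. Aqp1 had log2 differences of -0.23 at day 7 and 0.70 at day 10. Aqp11 probe set 1429254_at had 0.027 and -0.25. Among dim or small differences, Aqp12 had -0.28 and 0.55. Aqp6 had -0.60 and 0.00225 by its brightest probe set (-0.66 and -1.09, 1 direction, by 1447974_s_at). The brightest probe set of Aqp3 had -2.77, a bound because the treated signal was under the floor, and 0.55. Aqp3 probe set 1450460_at had 0.64 and -1.08, both bounds.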

How the results depend on the processing

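The log2 differences of Aqp8 kept their sign under every alternative run, from -3.18 to -3.08 at day 7, from -2.07 to -1.98 at day 10, and from -3.04 to -2.14 for the mean without 1 array. For the mean of Aqp9 (0.58 as reported) the range without 1 array was 0.25 to 0.90, and its other probe set gave 0.28 at day 7. For Aqp4 the range without 1 array was -0.92 to -0.23, and the other probe sets gave -0.49 and 0.0 at day 7, -1.78 and -1.16 at day 10, and -1.13 for the mean. With the floor at the 40th percentile those day 10 values were -0.64 and -0.025. For the brightest probe set of Aqp11 the range without 1 array was -0.10 to 0.33. It was 0.17 at day 7 and 0.10 at day 10 with arrays scaled to equal medians, and other probe sets gave -1.28 at day 7, -0.25 and -2.20 at day 10, and -0.11 and -1.74 for the mean. For Aqp1 the mean (0.23) was -0.04 to 0.50 without 1 array.

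By limma 45 genes were higher and 34 lower, and without a filter on dim genes 0 and 0, with 1918 genes at an unadjusted p under 0.05. The counts were 22 and 20 when a gene's probe sets were averaged, 23 and 19 without the trend, 24 and 23 with day as a block, and 93 and 69 at an adjusted p under 0.1. Without 1 array they were 13 to 197 higher and 9 to 269 lower. The higher counts came from leaving out a treated array, when only the controls give a spread. Besides the cases given above, Cebpb did not pass without the filter, with averaged probe sets or without the trend (adjusted p = 0.11, 0.0923 and 0.0819), nor S100a9 (0.309, 0.063 and 0.0739), and S100a8 did not pass without the filter (0.102). At 1.5-fold or 3-fold, or without the filter, counts past the size rule moved by over 1.5 times, from 193 to 1841 against 552 to 700 as reported. The labels give no replicate numbers, and day as a block is the pairing by harvest day. The floor limits the values of the 2 dimmer Aqp4 probe sets and of Aqp3, Aqp5 and Mip. Aqp11 probe set 1455846_at lay above the floor used on every array. Its day 10 difference of -2.20 was -1.29 with the floor at the 40th percentile.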
